A study of Mus musculus with 16 samples.

Results

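The retinal pigment epithelium (RPE) was compared with the neurosensory retina (NSR) of control mice on Affymetrix Mouse Gene 1.0 ST arrays. The arrays were chosen by their labels alone: 4 arrays of control RPE and 4 arrays of control NSR, 8 of the 16 arrays in the series. The donors were 4 male mice of the albino strain Balb/cJ, 10 weeks old and kept on a 12-hour cycle of light and dark. Each mouse gave 1 NSR and 1 RPE sample under the same mouse number, so that the tissues were paired by animal. The other 8 arrays came from 4 mice killed 4 hours after 18 hours of light at 10000 lux, and they entered only an alternative fit. The sources used here do not give how the RPE was freed from the retina and the choroid.

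The RPE is a single layer of polarised epithelium between the photoreceptors and the blood vessels of the choroid. It turns all-trans retinol from bleached visual pigment back into 11-cis retinal, takes up and digests the tips of outer segments that photoreceptors shed each day, moves ions, water and lactate away from the retina, and seals the outer blood-retina barrier with tight junctions. The NSR holds rods and cones, the bipolar, horizontal, amacrine and ganglion cells that carry their signals, and Müller glia.

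Values are log2 expression as deposited, and a difference is always control RPE minus control NSR. A gene is called where limma's p for that difference, adjusted by the Benjamini-Hochberg method over 19938 genes, was under 0.05. Since the deposited values carry no detection measure, a background range was read from 1178 olfactory and vomeronasal receptor genes, a gauge chosen after the values had been seen: 95% of them lay under 6.04 in NSR and under 5.99 in RPE. A fold for a gene whose lower tissue lies in that range is uncertain in size, and such genes are marked below as dim in that tissue. In pieces of tissue, fewer cells of a type and less RNA per cell cannot be told apart.

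Tissue dominated the 8 arrays. Arrays of the same tissue correlated at 0.99 to 0.992 in NSR and 0.987 to 0.989 in RPE, arrays of different tissues at 0.892 to 0.905, and the first principal component held 93.6% of the variance. The labelled tissues showed their defining markers: the visual cycle genes of the RPE side had a median level of 12.27 to 12.31 on the RPE arrays and 7.08 to 7.46 on the NSR arrays, and rod genes 11.58 to 11.70 on the NSR arrays and 8.05 to 8.46 on the RPE arrays. RPE control 2 stood apart in its lens markers. Their median was 7.37, against 6.29 to 6.44 on the other RPE arrays and 6.14 to 6.24 on the NSR arrays. Among other genes, that array was also the highest RPE array for Kera (8.96) and Aqp1 (8.22) and the lowest for Rab38 (8.04). Results that this array moves are given with and without it.

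Of 19938 genes, 10984 were called (55.1%), 6144 higher in RPE (30.8%) and 4840 lower in RPE (24.3%). At least 2-fold apart were 3274 called genes (16.4%), 1826 higher in RPE (9.16%) and 1448 lower (7.26%), and at least 10-fold apart were 189 higher (0.948%) and 150 lower (0.752%). For 10407 genes (52.2%) the RPE and NSR arrays did not overlap, and the median difference over all genes was 0.04. How the calls split between the tissues depended on the scaling. Of the called genes 55.9% were higher in RPE, against 50.0% after quantile normalization, 58.3% after centring each array on its median over genes and 72.3% after centring on the median over all transcript clusters. The 16 housekeeping genes had a median level of 11.05 to 11.09 on the NSR arrays and 11.48 to 11.55 on the RPE arrays, with 7 of them called higher, 4 lower and a median of their own differences of 0.11. Centring on that level moved the median of all genes to -0.39 and left 17.7% of the called genes higher. The receptor genes had a median difference of 0.01 as deposited and -0.42 after that centring, which called 1113 of the 1178, against 97 as deposited (8.23%). A small difference towards RPE can thus lose its call or its sign with housekeeping centring, and a small difference towards NSR with centring over all transcript clusters. Calls below are those of the values as deposited, and the value under such a centring is given for each named gene that was called and lost its call or its sign with it.

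**Figure D1:**
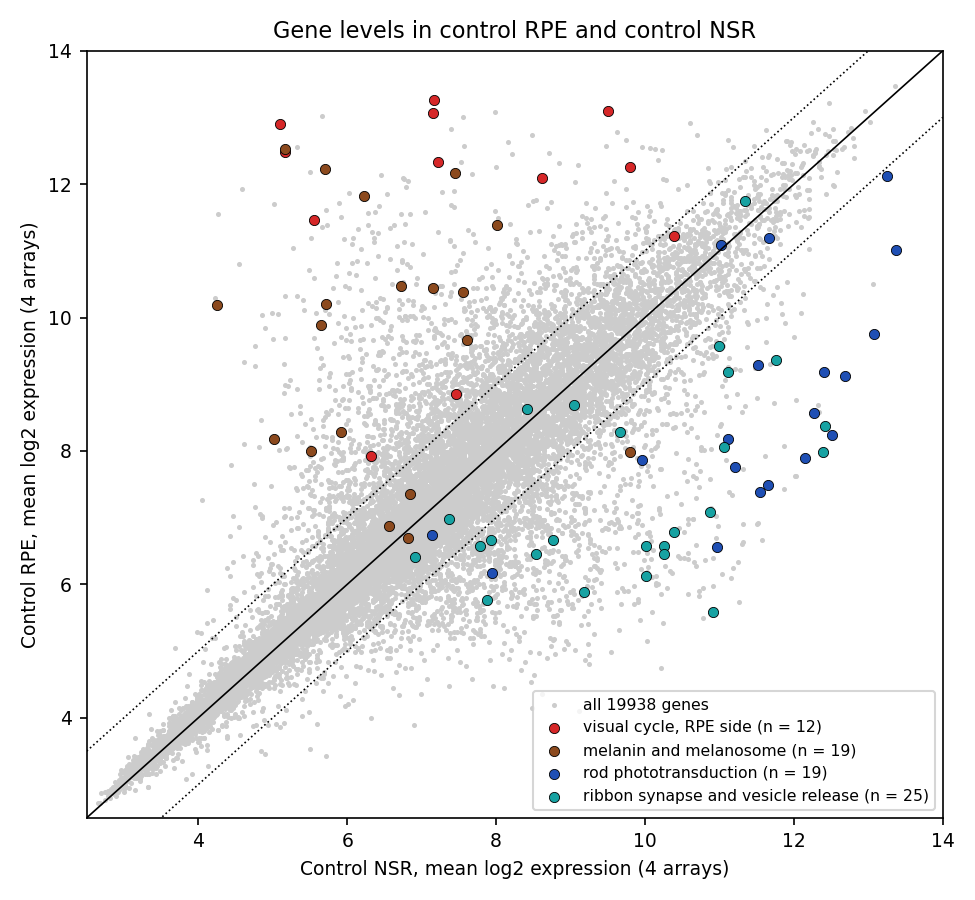
Mean log2 expression of 19938 genes in control NSR (horizontal axis) and control RPE (vertical axis), 4 arrays each, with 4 gene lists coloured. The solid line marks equal levels and the dotted lines a 2-fold difference. Most visual cycle and melanin genes lie above the upper dotted line and most rod and synapse genes below the lower.

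The largest differences were taken among called genes with non-overlapping arrays, leaving out predicted, clone, RIKEN and small RNA names. Of these, the 15 with the largest difference towards RPE were Rpe65, Dct, Cox8b, Fap, Lrat, Pon1, Ermn, Sema3c, Cldn1, Tyrp1, Sult1c1, Ttr, Tc2n, Tyr and Rdh5. All but Ttr were dim in NSR. Visual cycle enzymes (Rpe65, Lrat, Rdh5) and pigment enzymes (Dct, Tyrp1, Tyr) make up 6 of them, and Ttr encodes the carrier of thyroxine and of retinol-binding protein. Cox8b, a subunit of cytochrome c oxidase best known from heart and skeletal muscle, read 12.98, 13.04, 13.05 and 13.02 on the RPE arrays and 5.59, 5.75, 5.53 and 5.78 on the NSR arrays. The groups were far apart and each was tight, with a 164-fold difference (log2 7.36, SE 0.07, limma adjusted p = 1.4e-13). Fap, a serine protease of activated fibroblasts, was 163-fold higher and Pon1, a lactonase better known from liver and blood lipoproteins, 156-fold higher. Ermn, a cytoskeletal protein of oligodendrocytes, was 150-fold higher, and Sema3c, a secreted guidance cue, 102-fold. The skeletal muscle list did not accompany Cox8b: 3 of its 14 genes were called higher and 2 lower, with a median difference of 0.04. Of the 8 genes of Schwann cells and oligodendrocytes 5 were higher and 0 lower, or 3 and 3 with housekeeping centring. Pmp22 and Sox10 of that list were 8.89-fold and 2.82-fold higher, while Mbp and Mag, myelin genes of the same cells as Ermn, differed by 0.85 and 0.41, the latter dim in both tissues and at -0.02 with housekeeping centring.

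At the other end, with the same names left out, stood 15 genes of neurons and photoreceptors: Neurod4, Gabrb2, Scg3, Cadps, Vsnl1, Gng3, Impg2, Rit2, Rp1, Neurod1, Rdh12, Gria2, Mapk10, Impg1 and Calb1. All but Vsnl1, Impg2, Rit2, Rp1 and Rdh12 were dim in RPE. Cadps, which primes dense-core vesicles for release, read 10.79, 10.80, 10.79 and 10.76 in NSR and 5.93, 5.40, 5.45 and 5.17 in RPE, a 39.3-fold difference (log2 -5.30, SE 0.13, limma adjusted p = 2.98e-11). Vsnl1, a neuronal calcium sensor, was 33.4-fold, Rit2, a neuronal small GTPase, 30.2-fold, and Impg2, a proteoglycan of the matrix around photoreceptors, 30.5-fold lower in RPE. Neurod4, a transcription factor of retinal neurons, was 46.2-fold lower, at 5.73 ± 0.08 in RPE (SD, n = 4). Since the lower level of these genes lies in or near the background range, the sizes of the folds at both ends have no settled order.

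**Figure D2:**
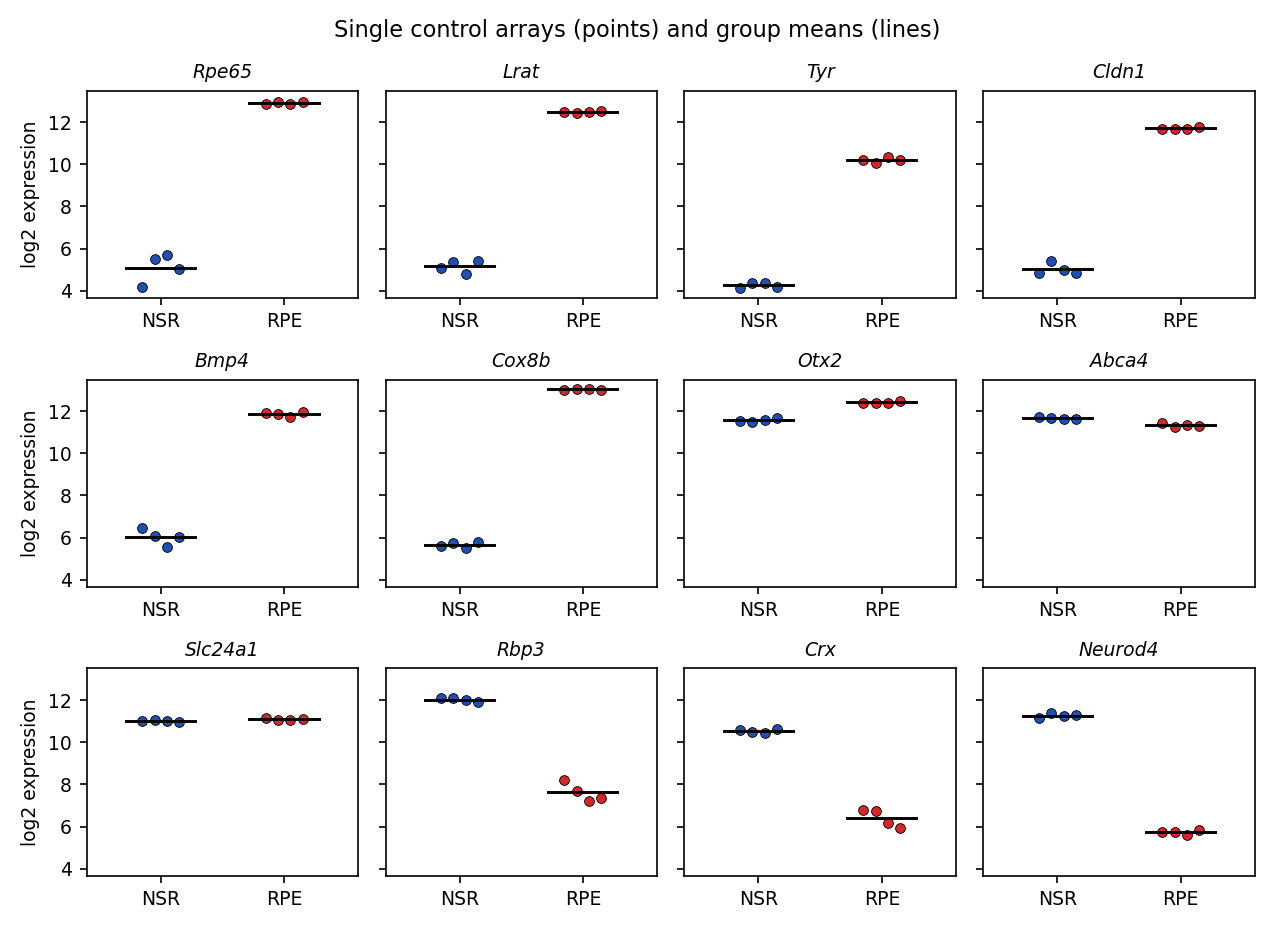
Log2 expression of 12 genes on each control array (points, in the order of mouse 1 to 4) with the group mean (line); blue is NSR and red RPE. The tissues are far apart for Rpe65, Lrat, Tyr, Cldn1, Bmp4, Cox8b, Rbp3, Crx and Neurod4, close for Otx2 and Abca4, and overlap for Slc24a1.

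The visual cycle divided by the cell that carries each step. All 12 measured genes of the RPE side were higher in RPE, 11 of them at least 2-fold, with a median difference of 4.35, where 30.8% of all genes were higher. Rpe65, the isomerase that makes 11-cis retinol, was 224-fold higher and dim in NSR. Lrat, which esterifies retinol, read 12.47, 12.45, 12.47 and 12.52 in RPE and 5.07, 5.36, 4.78 and 5.43 in NSR, where it was dim. Rdh5, the dehydrogenase that completes 11-cis retinal, was 60.6-fold higher in RPE, also dim in NSR, and Rgr, an opsin of the RPE and Müller glia, 60.0-fold. Stra6, the receptor that takes retinol from its carrier in the blood, was 34.5-fold higher, and Rdh10 12.1-fold. Rrh, the opsin peropsin, was 11.1-fold higher. Rlbp1, which holds 11-cis retinoids and is also made by Müller glia, differed less: it stood at 12.26 ± 0.04 in RPE and 9.80 ± 0.08 in NSR, a 5.52-fold difference (SD, n = 4). Rbp4, Rdh11 and Dhrs3 were 3.07-fold, 2.62-fold and 1.78-fold higher in RPE.

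Some RPE transcripts varied between the NSR arrays. Rpe65 read 4.17, 5.50, 5.70 and 5.01 on NSR arrays 1 to 4, Ttr 6.19, 7.53, 7.87 and 7.09, and Rgr 6.82, 7.20, 7.38 and 7.21. In each case NSR control 1 was lowest and NSR control 3 highest. That held for 5 of the 12 visual cycle genes of the RPE side and for 8.82% of all genes higher in RPE, while Lrat and Cox8b were lowest on NSR control 3. These genes were picked after their values had been seen, and the part of RPE left on the retina in them was not tested.

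On the photoreceptor side of the cycle 5 of 6 genes were lower in RPE and 1 was higher, with a median of -1.34. Rdh12, a reductase of all-trans retinal in the inner segments, was 29.6-fold lower. Rbp3, the retinoid carrier of the space between photoreceptors and RPE, read 12.09, 12.08, 12.01 and 11.92 in NSR and 8.20, 7.69, 7.22 and 7.36 in RPE, 21.3-fold lower. Rdh8, the outer segment reductase, was 4.19-fold lower. Abca4, the flippase that clears retinal from outer segment discs, was the exception in size. It read 11.72, 11.67, 11.60 and 11.64 in NSR and 11.44, 11.26, 11.36 and 11.28 in RPE, so that the groups did not overlap but lay only 1.25-fold apart (log2 -0.33, SE 0.06, limma adjusted p = 0.000958). Its call held under the 4 scalings. Rdh13 was 1.52-fold lower, and Rdh14, a reductase with wide expression, 1.66-fold higher in RPE.

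Balb/cJ mice make no melanin, because their tyrosinase is inactive, but the pigment programme was present as mRNA. Of 19 genes of melanin synthesis and melanosomes, 17 were higher in RPE, 15 of them at least 2-fold, 1 was lower and 1 was not called, with a median of 3.30. Tyr, which encodes tyrosinase, read 10.18, 10.04, 10.34 and 10.22 in RPE and 4.12, 4.37, 4.36 and 4.16 in NSR, 61.4-fold higher (log2 5.94, SE 0.09, limma adjusted p = 5.98e-13). Dct and Tyrp1, the later enzymes of eumelanin synthesis, were 165-fold and 92.4-fold higher. Mlana and Pmel, proteins of the melanosome's structure, were 47.9-fold and 18.9-fold higher, and the melanosomal transporters Oca2, Slc24a5 and Slc45a2 22.3-fold, 10.4-fold and 5.58-fold. Rab27a, a GTPase that carries melanosomes and other secretory vesicles, was 26.3-fold higher, while its partner gene Mlph was 1.25-fold higher, a difference that turned to -0.11 with housekeeping centring. Tspan10, Gpr143, a receptor of the melanosome membrane, and Gpnmb were 9.83-fold, 8.95-fold and 7.13-fold higher. Rab38, which sorts pigment enzymes to melanosomes, Myrip, which ties Rab27a to a motor, and Hps4 were 5.13-fold, 4.15-fold and 1.43-fold higher, the last at 0.08 and not called with housekeeping centring, while Cited1 differed by -0.12 and was not called. Tyr, Dct, Tyrp1, Pmel, Oca2, Slc45a2, Gpr143 and Rab38 were dim in NSR. Mitf, the transcription factor of pigment cells, was 13.5-fold higher in RPE. The lower gene was Trpm1, named for melanocytes but also the channel of ON bipolar cells, at 9.80 ± 0.07 in NSR and 7.99 ± 0.30 in RPE (SD, n = 4), 3.50-fold lower.

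Choroidal melanocytes share most of these genes. Sox10, which melanocytes and Schwann cells use and RPE does not, read 8.16, 8.19, 8.33 and 8.47 in RPE and 6.91, 6.57, 6.82 and 6.88 in NSR, 2.82-fold higher, and Kit was 2.48-fold higher. Of the 9 genes measured on the melanocyte list, 8 were higher in RPE and 0 lower, 5 of the list being pigment genes counted above. Their part in the pigment values was not tested.

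The promoters of the 3 melanin enzymes, all among the 15 largest differences towards RPE, were searched for a motif. The 250 bases before each start were taken from RefSeq (GRCm38.p6) and searched on both strands for CATGTG, the core of the motif that MITF binds, which 12.3% of 32851 promoters of that length hold. In the lines below, 5′ to 3′ in the direction of the gene, capitals mark a match on either strand. Tyr lies at chr7:87493513-87493762 on the minus strand, Tyrp1 at chr4:80833963-80834212 on the plus strand and Dct at chr14:118052247-118052496 on the minus strand.
Tyr: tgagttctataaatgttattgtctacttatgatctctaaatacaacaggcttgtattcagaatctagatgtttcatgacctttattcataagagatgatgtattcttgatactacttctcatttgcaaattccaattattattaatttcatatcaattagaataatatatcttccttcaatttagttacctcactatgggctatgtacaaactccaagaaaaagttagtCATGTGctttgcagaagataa
Tyrp1: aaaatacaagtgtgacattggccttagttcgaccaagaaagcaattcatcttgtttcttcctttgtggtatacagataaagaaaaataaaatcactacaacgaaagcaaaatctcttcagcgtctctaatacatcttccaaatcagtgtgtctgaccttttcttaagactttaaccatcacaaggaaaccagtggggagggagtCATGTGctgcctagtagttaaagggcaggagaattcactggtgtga
Dct: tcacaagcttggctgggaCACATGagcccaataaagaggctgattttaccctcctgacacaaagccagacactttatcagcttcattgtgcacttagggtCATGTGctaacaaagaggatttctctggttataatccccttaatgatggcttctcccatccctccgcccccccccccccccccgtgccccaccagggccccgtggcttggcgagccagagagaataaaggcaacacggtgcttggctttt
The match began 21 bases before the start in Tyr, 46 in Tyrp1, and 150 and 232 in Dct. In each of the 3 the match stands within the 10 letters GTCATGTGCT, a longer word read from these lines and found on either strand in 0.155% of the 32851 promoters. A match is a description of these letters and no measurement of binding, and no count was made for the other genes of the melanin list.

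MicroRNA loci were measured too, some of them within channel genes. The array's clusters for such loci measure RNA of the precursor's locus and not the mature microRNA, and the loci named here were chosen after their values had been seen. Of 272 measured loci 34 were higher in RPE and 60 lower, where 30.8% of all genes were higher and 24.3% lower, and 183 were dim in both tissues. Mir204, which lies within Trpm3, read 9.31, 9.20, 8.23 and 9.70 in RPE and 5.69, 6.04, 5.45 and 5.82 in NSR, where it was dim, 10.3-fold higher. Trpm3 itself was 4.57-fold higher in RPE. Mir211, which lies within Trpm1, went with its host the other way, 1.37-fold lower in RPE (log2 -0.45, SE 0.12, limma adjusted p = 0.00857), with overlapping arrays. The mature forms of these loci share a seed, bases 2 to 8, shown in capitals beside that of miR-218-5p. Mir218-1 lies within Slit2, and was 8.61-fold lower in RPE with its host 10.7-fold lower, both dim there.
miR-204-5p: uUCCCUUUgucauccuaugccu
miR-211-5p: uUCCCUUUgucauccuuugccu
miR-218-5p: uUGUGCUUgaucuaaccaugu
The sequences are RefSeq's (GRCm38.p6), at chr19:22750610-22750631, chr7:64205831-64205852 and chr5:48223966-48223986, all on the plus strand.

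Transporters of the epithelium were mostly higher in RPE. Of 26 measured genes of ion, lactate and fluid transport 18 were higher, 17 at least 2-fold, 3 were lower and 5 were not called, with a median of 1.98. Slc26a7, an anion exchanger, read 11.62, 11.62, 11.61 and 11.63 in RPE and 5.58, 5.77, 5.58 and 5.93 in NSR, 59.9-fold higher (log2 5.90, SE 0.08, limma adjusted p = 5.67e-13) and dim in NSR. The organic anion transporter Slco1a4 was 36.3-fold and the amino acid transporter Slc6a20a 34.5-fold higher. The organic anion transporter Slc22a8 was 19.7-fold higher. Kcnj13, the potassium channel of the apical membrane, was 19.2-fold higher and Slc4a5, a bicarbonate cotransporter, 20.8-fold, whereas Bsg, the chaperone of lactate transporters in both tissues, was 2.68-fold higher. Best1, the chloride channel gene that is mutated in Best disease, was dim in both tissues at 5.61 ± 0.06 and 5.78 ± 0.13 (SD, n = 4) and was not called (limma adjusted p = 0.0928). The water channel gene Aqp1 read 6.82, 8.22, 7.63 and 6.92 in RPE, on both sides of its NSR level of 7.98 ± 0.06, and was not called. Without RPE control 2, its highest array, it was called lower (log2 -0.85).

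Members of the same gene family stood in different tissues, in families named after their values had been seen apart from the ion gradient genes. Among carbonic anhydrases, which supply bicarbonate, Car12 and Car14 were 55.0-fold (dim in NSR) and 9.10-fold higher in RPE, while Car2, the cytosolic form of Müller glia, was 18.3-fold lower. Among monocarboxylate transporters, which move lactate, the RPE gene Slc16a8 was 8.06-fold higher, Slc16a1 4.19-fold higher and Slc16a3 1.73-fold lower. Slc2a1, the glucose transporter of barriers, was 6.05-fold higher in RPE, and Slc2a3, the neuronal one, 4.08-fold lower and dim in RPE. Ldhb was 3.42-fold higher and Ldha, the form favoured by tissues that make lactate, 2.91-fold lower. Hk2, a hexokinase of photoreceptors, was 7.54-fold lower, while Hk1 was at 10.94 ± 0.03 in RPE and 11.10 ± 0.08 in NSR and was not called (SD, n = 4, limma adjusted p = 0.0507), but was called lower in 8 alternatives, at -0.59 with the mean of its clusters. Of the 20 glucose uptake and glycolysis genes 7 were higher and 10 lower, with a median of -0.23.

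The 9 measured genes of sodium, potassium, calcium and chloride gradients were 4 higher and 5 lower in RPE. The inward chloride cotransporter Slc12a2 was 3.69-fold higher, and Slc12a5, which lowers chloride in neurons, 8.94-fold lower. Of the sodium pump's beta subunits Atp1b1 was 2.07-fold higher in RPE and Atp1b2, of photoreceptors and glia, 1.35-fold lower. Atp1b3 was 1.24-fold higher, a difference that was 0.08 after quantile normalization and -0.12 with housekeeping centring, neither called. The calcium pump Atp2b2 was 2.55-fold higher and Atp2b1 4.00-fold lower, and the exchanger Slc8a1 3.26-fold lower, dim in RPE. Slc8a2, dim in both tissues, differed by -0.18 and lost its call with centring over genes (-0.16) or over all transcript clusters (-0.04), with the mouse as a block (limma adjusted p = 0.0521) and without any of 6 of the 8 arrays in turn.

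**Figure D3:**
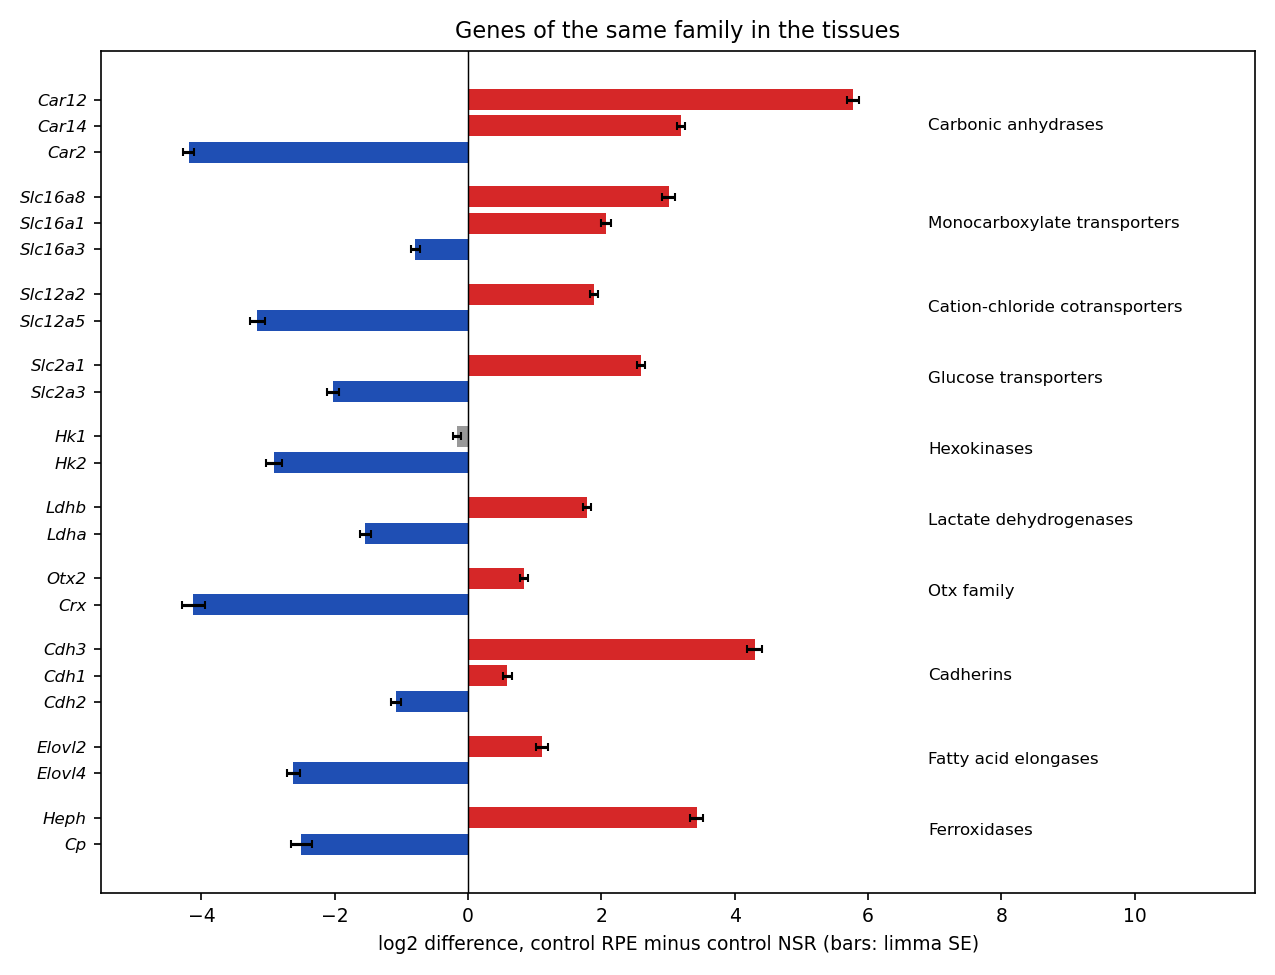
Log2 difference, control RPE minus control NSR, for genes of 10 families chosen after their values had been seen, as bars from 0 with whiskers for the limma standard error; red is called higher in RPE, blue called lower and grey not called. The members shown are a selection and leave out others that were measured, such as Otx1. In 9 of the 10 families, all but the hexokinases, called members lie on opposite sides of 0, a count that describes this choice only.

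Genes for the uptake of outer segments were mixed. Of 16 measured genes 9 were higher, 4 lower and 3 not called, with a median of 0.58. The receptor subunit Itgav read 12.25, 12.24, 12.26 and 12.24 in RPE and 7.98, 7.95, 8.06 and 8.01 in NSR, 18.9-fold higher (log2 4.24, SE 0.06, limma adjusted p = 4.34e-13), and its partner Itgb5 was 4.20-fold higher. Mertk, the receptor kinase that starts ingestion, was 15.1-fold higher, while its relatives Tyro3 and Axl were higher by 0.67 and 0.48 on the log2 scale, and Axl lost its call with housekeeping centring (0.05). Myo7a, the motor that moves phagosomes and melanosomes, was 8.34-fold higher. The bridging ligands did not share this: Gas6 and Pros1 differed by 0.15 and 0.16 and were not called (0.28 and called without RPE control 4 for Pros1), and Mfge8 was 3.55-fold lower in RPE. Tulp1, a photoreceptor protein that is also a ligand of Mertk, was 13.4-fold lower. Apart from Itgav, Mertk, Myo7a and Tulp1, these genes were named after their values had been seen.

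Digestion genes were more uniform. Of 27 measured lysosomal genes 23 were higher in RPE, 15 of them at least 2-fold, 2 lower and 2 not called, with a median of 1.13; with housekeeping centring 17 were higher and 3 lower. Ctsd, the main aspartic protease of RPE lysosomes, read 12.59, 12.57, 12.53 and 12.60 in RPE and 9.32, 9.57, 9.44 and 9.59 in NSR, 8.54-fold higher. Lipa, the acid lipase, was 7.53-fold higher, with NSR values that spread over 7.18, 7.21, 6.57 and 6.06. The cholesterol carrier gene Npc2 was higher by 2.72 on the log2 scale, whereas Npc1, its membrane partner, was lower, at -1.16. Glb1, beta-galactosidase, was 4.69-fold higher.

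Junction genes of the barrier were led by Cldn1, which read 11.69, 11.69, 11.67 and 11.76 in RPE and between 4.83 and 5.39 in NSR, 103-fold higher. Cldn2, a claudin that forms cation pores, was 23.2-fold higher, Dsp, the desmosome's plaque protein, 24.9-fold, and Ocln, occludin, 3.98-fold; all 4 were dim in NSR. Ezr, which builds apical microvilli, was 27.5-fold higher, and the keratin genes Krt8 and Krt18 13.6-fold and 4.58-fold. Cldn19, known as the main claudin of human RPE, was at 6.58 ± 0.10 in RPE and 6.52 ± 0.04 in NSR and was not called (SD, n = 4, limma adjusted p = 0.422). Of the classical cadherins, named after their values had been seen, Cdh3 was 19.7-fold and Cdh1 1.51-fold higher in RPE, both dim in NSR (Cdh1 not called with housekeeping centring, 0.16), and Cdh2 2.11-fold lower. Crb1, a polarity gene of photoreceptors and Müller glia, was 10.0-fold lower and dim in RPE. Over the list of 30 genes 17 were higher and 5 lower with a median of 0.29, which housekeeping centring turned to -0.15 with 13 each way.

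Secreted factors were mostly higher in RPE, with members of the same family on both sides. Of 28 genes 19 were higher and 6 lower in RPE, with a median of 1.19. Bmp4, a growth factor of the bone morphogenetic protein (BMP) family, read 11.90, 11.84, 11.74 and 11.95 in RPE and 6.45, 6.09, 5.55 and 6.01 in NSR, 57.1-fold higher (log2 5.84, SE 0.15, limma adjusted p = 4.33e-11) and dim in NSR. Bmp2, also dim in NSR, was 31.6-fold, Bmp6 9.52-fold and Bmp7 4.66-fold higher, and the BMP target genes Id2, Id3 and Id1 were 6.12-fold, 3.46-fold and 2.10-fold higher. Sostdc1, an antagonist of BMP and Wnt signals, was 36.1-fold higher. The Wnt antagonists split: Sfrp1, dim in NSR, was 37.1-fold higher in RPE and Frzb, another member of the same family, 5.59-fold lower and dim in RPE, while the Wnt receptor Fzd4 was 11.5-fold higher and its ligand Ndp, norrin, 2.14-fold lower, also dim in RPE. Tgfb2 was 2.65-fold lower and Fgf9 4.76-fold lower. Vegfa, which keeps the choriocapillaris alive, was 3.43-fold higher. Of 36 genes of Wnt, BMP and TGF-beta signalling 22 were higher and 6 lower in RPE, or 18 and 14 with housekeeping centring. Bmp7, the Id genes, Ndp, Fgf9 and Vegfa were named after their values had been seen.

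Serpinf1, the anti-angiogenic PEDF of the RPE, was only 2.47-fold higher and varied between RPE arrays, at 7.85, 8.94, 8.65 and 8.22. Dcn, a proteoglycan of fibroblasts, had the same order over those arrays, 10.09, 11.25, 10.84 and 10.65. That order was shared by 5 of the 23 genes of fibroblasts, pericytes and smooth muscle, against 3.44% of all genes, and not by Ogn or Acta2 of the same list. Serpinf1 and the order were picked after their values had been seen, and Dcn is among the 5, so the count is a description only. The part of fibroblasts in the Serpinf1 value was not tested.

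Bruch's membrane lies beneath the RPE. Of 31 matrix genes 20 were higher and 2 lower in RPE, or 15 and 11 with housekeeping centring. Col8a1, a short-chain collagen of that membrane, was 29.1-fold higher, and Timp3, the metalloproteinase inhibitor that lies in it, 22.1-fold. Fbln5, which assembles elastic fibres, and Nid2, a basement membrane linker, were each 11.1-fold higher, Nid2 being dim in NSR. Efemp1, a fibulin mutated in an inherited drusen disease, was 2.57-fold lower in RPE, at 8.55, 8.85, 8.62 and 8.74 in NSR and 7.14, 7.08, 7.65 and 7.46 in RPE. The basement membrane collagens Col4a3 and Col4a4 were 1.88-fold and 2.22-fold higher, while Col4a1 and Col4a2 differed by 0.04 and -0.01 and were not called.

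**Figure D4:**
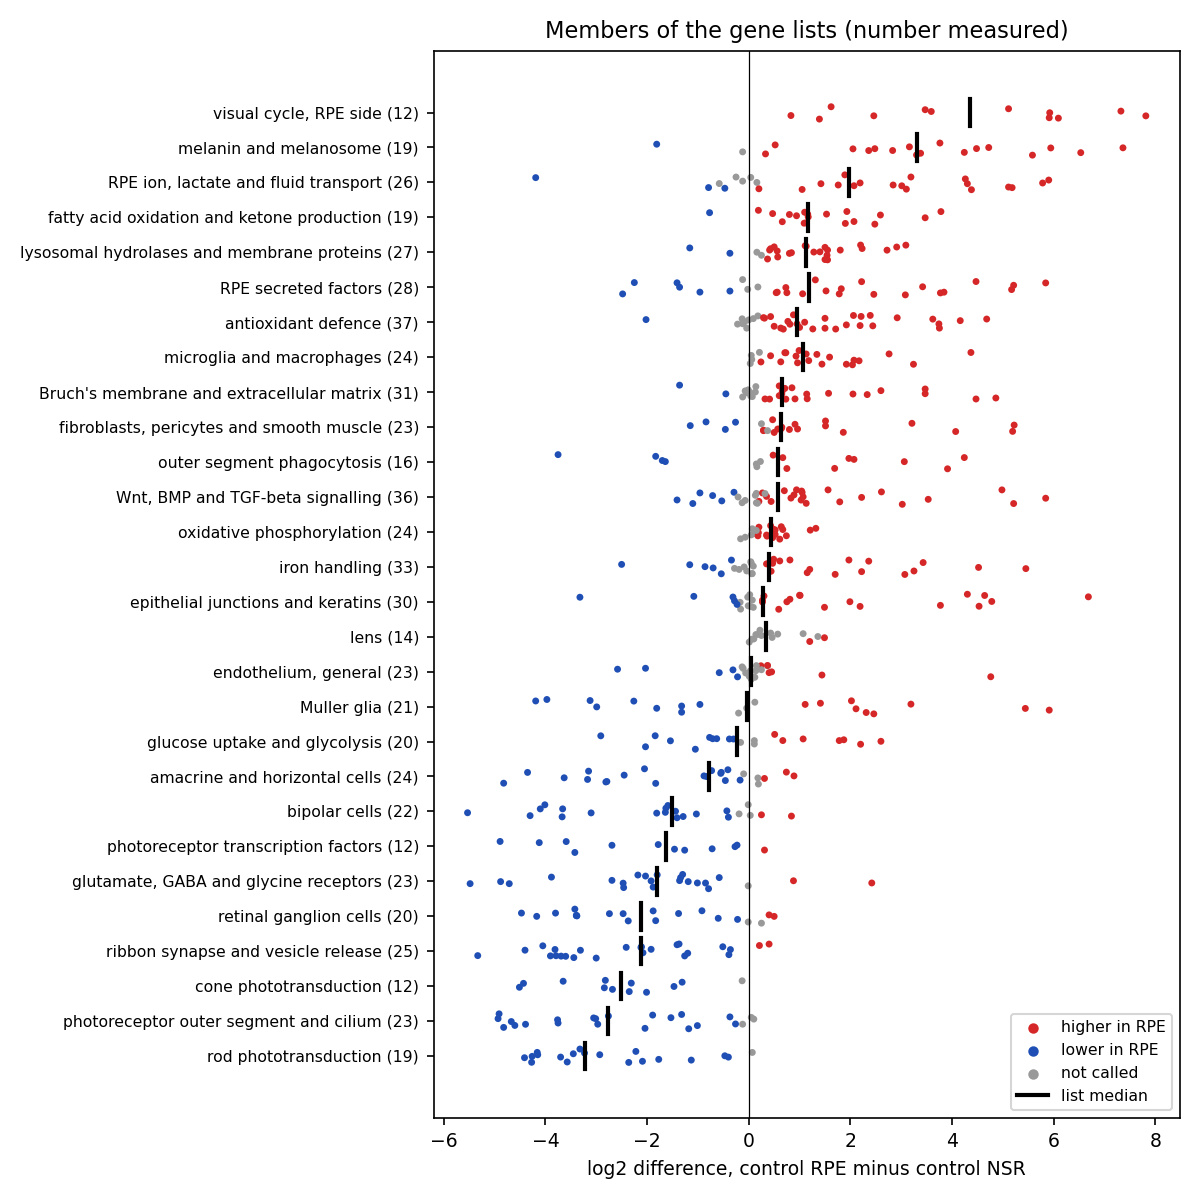
Log2 difference, control RPE minus control NSR, for each measured member of 28 gene lists (points; red called higher in RPE, blue called lower, grey not called), with the list median as a black bar and the number of members in brackets. Medians run from 4.35 for the visual cycle genes of the RPE side to -3.23 for rod phototransduction.

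Transcription factors of the eye field were found on both sides. Of 19 genes 10 were higher in RPE, 8 lower and 1 not called. After Mitf the largest RPE-side differences were those of Foxd1, dim in NSR, at 4.53-fold, Sox9 at 4.32-fold, Tcf7l2 at 2.57-fold and Lhx2 at 2.54-fold. Tbx5 and Otx1, dim in NSR, were 2.12-fold and 1.66-fold higher. Pax6, which the adult retina keeps in amacrine, horizontal and ganglion cells, was 8.86-fold lower in RPE, Six6 2.92-fold, Meis1 2.19-fold and Meis2 1.78-fold. Vax2, Rax, Sox8 and Pknox2 were 1.27-fold to 1.47-fold lower, and their calls held under the 4 scalings. Six3 and Zfp503 were higher by 0.58 and 0.55 and lost their calls with housekeeping centring (0.15 and 0.12). Tfec, a relative of Mitf, was dim in both tissues and was not called.

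Otx2 and Crx, related homeobox factors that bind the same letters, did not move together. Otx2, which both RPE and photoreceptors need, read 12.40, 12.38, 12.39 and 12.47 in RPE and 11.55, 11.48, 11.57 and 11.67 in NSR, 1.79-fold higher (log2 0.84, SE 0.06, limma adjusted p = 3.01e-07). Crx, which photoreceptors use, read 10.56, 10.48, 10.44 and 10.62 in NSR and 6.78, 6.74, 6.15 and 5.95 in RPE, 17.4-fold lower. The core of their motif, TAATCC on either strand, occurs in 6.25% of the 250-base promoters. Another promoter picked by name, that of a rod gene, also held a match, and no share was counted over the genes of either tissue. The motif is shown in capitals for a gene of each tissue picked as an example. These are Rpe65 at chr3:159598931-159599180 on the plus strand and Crx at chr7:15879956-15880205 on the minus strand.
Rpe65: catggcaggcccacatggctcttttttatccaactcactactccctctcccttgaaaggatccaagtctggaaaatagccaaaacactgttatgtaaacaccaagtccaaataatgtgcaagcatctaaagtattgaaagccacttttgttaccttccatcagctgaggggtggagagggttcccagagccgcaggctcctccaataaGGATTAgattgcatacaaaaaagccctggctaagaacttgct
Crx: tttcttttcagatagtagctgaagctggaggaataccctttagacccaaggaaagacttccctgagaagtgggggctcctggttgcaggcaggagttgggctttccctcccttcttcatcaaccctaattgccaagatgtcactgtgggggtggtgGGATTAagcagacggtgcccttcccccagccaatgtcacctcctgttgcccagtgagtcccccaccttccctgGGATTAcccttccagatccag
Of the other photoreceptor factors Neurod1 was 29.7-fold lower in RPE and dim there, Nrl, which sets rod fate, 12.0-fold, Samd7, a rod repressor, 10.7-fold, and Mef2c 6.46-fold. Esrrb, Mef2d, Prdm1 and Rorb were 3.43-fold, 2.74-fold, 2.40-fold and 1.65-fold lower, with Esrrb dim in RPE. Thrb and Onecut1 differed by -0.27 and -0.23 and were not called after centring over all transcript clusters (-0.13 and -0.09). Rxrg, dim in NSR, was 1.24-fold higher, a difference of -0.13 with housekeeping centring. In all 11 of 12 factors were lower in RPE, where 24.3% of all genes were.

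Most rod and cone genes were lower in RPE but above the background range there, with 0 of 19 rod, 3 of 12 cone and 3 of 23 outer segment and cilium genes dim in RPE. Of 19 rod phototransduction genes 18 were lower, 16 at least 2-fold, with a median of -3.23, and of 23 outer segment and cilium genes 20 were lower with a median of -2.76. Grk1, rhodopsin kinase, was 21.3-fold, the phosphodiesterase subunit gene Pde6b 19.2-fold, the channel gene Cnga1 19.1-fold and Rcvrn, recoverin, 17.9-fold lower. Prom1 and Prph2, which shape the discs, were 25.5-fold and 21.0-fold lower. Pde6b still read 8.45, 8.46, 7.99 and 8.07 on the RPE arrays and Gnat1, rod transducin, 11.14, 11.44, 10.84 and 10.64. RPE control 1 and 2 were the higher arrays for both, as for 22 of the 49 genes of the rod, cone and outer segment lists that were lower in RPE (44.9%), against 16.3% of all genes lower in RPE. The order was picked after these values had been seen, and Pde6b and Gnat1 are among the 22, so the count is a description only. Rcvrn and Opn1sw were among those that did not share this order. Of 12 cone genes 11 were lower: Arr3, cone arrestin, 22.8-fold, Opn1sw, the short-wave opsin, 21.6-fold, Opn1mw 12.6-fold, and Pde6h 7.18-fold, with Arr3 and Opn1mw dim in RPE. The part of photoreceptor material on the RPE in these values was not tested.

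A few photoreceptor genes, singled out after their values had been seen, were nearly as high in RPE as in NSR. Slc24a1, the sodium-calcium exchanger of rods, read 11.15, 11.05, 11.06 and 11.09 in RPE and 11.03, 11.07, 11.01 and 10.98 in NSR. The groups overlapped, and the difference was 0.07 (SE 0.06, limma adjusted p = 0.36). Rgs9, which ends the transducin signal, was 1.39-fold lower, Cdhr1, a cadherin of the outer segment base, 1.29-fold lower, and Prcd, an outer segment disc protein, 1.19-fold lower with overlapping arrays and not called in the fit to all 16 arrays or with centring over all transcript clusters (-0.11). Of the cone genes Pde6c read 8.46, 8.43, 7.98 and 8.48 in RPE against 8.40, 8.49, 8.36 and 8.63 in NSR and was not called, but was called lower after quantile normalization (-0.30) and with housekeeping centring (-0.56). On the RPE arrays Slc24a1 and Rgs9 were lowest on RPE control 2, where Prcd was highest. The calls of Abca4, Rgs9 and Cdhr1 held under the 4 scalings.

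Most genes of inner retinal neurons were lower in RPE. Of 22 bipolar cell genes 17 were lower and 2 higher. Scgn, secretagogin of cone bipolar cells, was 19.7-fold, Cabp5, a calcium-binding protein of bipolar cells, 17.2-fold, and Isl1 16.2-fold lower, Scgn being dim in RPE, while Grm6, the glutamate receptor of ON bipolar cells, was 3.13-fold lower. The 2 higher were Otx2, described above, and Gnao1, at 0.25, which was -0.19 with housekeeping centring and -0.00 after quantile normalization. Of 24 amacrine and horizontal cell genes 18 were lower and 3 higher. Calb1 and Calb2, calcium buffers, were 28.3-fold and 12.4-fold lower, Prox1 20.3-fold and the connexin gene Gjd2 9.01-fold, all 4 dim in RPE. Gad2 and Gad1, which make GABA, were 7.03-fold and 4.15-fold lower, Gad2 being dim in RPE. Of 20 ganglion cell genes 16 were lower and 2 higher. The neurofilament genes Nefm and Nefl were 22.1-fold and 10.7-fold lower, the nicotinic receptor gene Chrnb3 18.1-fold and the vesicular glutamate transporter gene Slc17a6 13.9-fold, with Nefm, Chrnb3 and Slc17a6 dim in RPE. Of 25 genes of ribbon synapses and vesicle release 23 were lower and 2 higher, Scg3 40.2-fold, Snap25 21.1-fold, Cplx4 16.5-fold and Cplx3, the other complexin of ribbons, 13.9-fold lower, with Scg3 dim in RPE. The calcium channel gene Cacna1f differed by -3.90. Slc17a7, the glutamate transporter of photoreceptor and bipolar vesicles, was 12.1-fold lower.

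Some genes with a neuronal name went the other way. Of 23 receptor genes for glutamate, GABA and glycine 20 were lower and 2 higher. Gabrb2, a GABA receptor subunit, was 44.5-fold lower, Gria2 29.5-fold, Gabrr1, the rho subunit of bipolar cells, 26.1-fold and Gria4 14.7-fold, with Gabrb2, Gria2 and Gria4 dim in RPE. Gabrb1, in the same receptor family as Gabrb2, read 8.16, 8.28, 8.74 and 8.43 in RPE and 5.87, 5.99, 5.72 and 6.34 in NSR, 5.36-fold higher (log2 2.42, SE 0.15, limma adjusted p = 4.54e-08) and dim in NSR. Gria3 was 1.84-fold higher where Gria2 and Gria4 were lower. The glycine transporter gene Slc6a9 was 1.86-fold higher. Sv2b, a synaptic vesicle protein, read 11.74, 11.72, 11.74 and 11.75 in RPE and 11.35, 11.37, 11.31 and 11.31 in NSR, 1.32-fold higher, a difference of -0.03 with housekeeping centring. Rbpms2 was 1.41-fold higher and lost its call in that setting (0.06).

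Müller glia and astrocyte lists held genes of both tissues. Of 21 Müller genes 9 were higher in RPE and 9 lower, with a median of -0.04, or -0.47 with housekeeping centring. Among the 9 higher were Rgr and Rlbp1 of the visual cycle, Car14 and Sox9, all described above, together with Ptgds, prostaglandin D synthase, 43.5-fold, Apoe 4.97-fold, and Clu, clusterin, 4.07-fold. Among the 9 lower were Car2 and Abca8a, a lipid transporter, 15.7-fold, together with the glutamate transporter Slc1a3 at 7.93-fold and the water channel Aqp4 at 4.79-fold, with Abca8a and Aqp4 dim in RPE. Glul, glutamine synthetase, was at 12.64 ± 0.05 in RPE and 12.52 ± 0.08 in NSR and was not called (SD, n = 4, limma adjusted p = 0.128). It was called higher with a trend in the prior and with the mean of its clusters (log2 0.22), and stood at -0.31 with housekeeping centring. The glutamate transporter Slc1a2 was 10.2-fold lower in RPE, whereas Gja1, the gap junction gene of astrocytes and of RPE, was 24.6-fold higher, at 11.40, 11.37, 11.41 and 11.41 against 6.69, 6.84, 7.08 and 6.51. Aldh1l1 was 3.87-fold and S100b 2.31-fold higher. Gfap was dim in both tissues and was not called.

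Fuel genes differed by pathway. Of 19 genes of fatty acid oxidation and ketone production 18 were higher in RPE and 1 lower, with a median of 1.16, or 16 and 2 with housekeeping centring. Acadl, the long-chain acyl-CoA dehydrogenase, read 10.63, 10.45, 10.52 and 10.52 in RPE and 6.88, 6.78, 6.78 and 6.58 in NSR, 13.7-fold higher (log2 3.78, SE 0.08, limma adjusted p = 6.91e-12). Acaa2, Ech1 and Hadh, later enzymes of the same pathway, were 11.1-fold, 6.04-fold and 5.57-fold higher. Acadm, the medium-chain dehydrogenase, was the exception, 1.71-fold lower. Pdk2, a kinase that inhibits the pyruvate dehydrogenase of mitochondria, was 4.59-fold higher. Of 24 oxidative phosphorylation genes 18 were higher and 0 lower with a median of 0.44, a list that was 13 and 4 after quantile normalization and 6 and 9 with housekeeping centring, so that its direction is not settled. Cox7a1, like Cox8b a subunit best known from muscle, was 2.49-fold higher, with RPE values of 8.46, 7.81, 8.57 and 8.83.

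Of 21 genes of lipid and sterol transport 11 were higher and 8 lower. Plin2, the coat of lipid droplets, was 12.6-fold higher in RPE, Abhd5, which releases their fatty acids, 5.19-fold, and Mfsd2a, a carrier of docosahexaenoic acid, 12.8-fold. Elovl4, which makes the very long chains of photoreceptor membranes, was 6.13-fold lower, whereas Elovl2, an earlier step of the same chains, was 2.16-fold higher.

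Iron, complement and antioxidant genes are often studied in light damage, and many of them differed between the unexposed tissues. So did most genes: over all genes, 55.1% were called, 30.8% higher in RPE and 24.3% lower. The counts of the 3 lists stand beside those shares. Of 33 iron genes 18 were higher, 6 lower and 9 not called. Trf, transferrin, read between 12.98 and 13.02 in RPE and 7.48, 7.48, 7.81 and 7.46 in NSR, 43.6-fold higher (log2 5.45, SE 0.08, limma adjusted p = 7.83e-13). Its receptor gene Tfrc was 1.81-fold lower, and the endocytic receptor gene Lrp2, megalin, 23.0-fold higher. The 2 ferroxidases that help iron leave cells opposed each other: Heph, hephaestin, was 10.8-fold higher in RPE and dim in NSR, and Cp, ceruloplasmin, 5.66-fold lower. Slc40a1, ferroportin, was dim in both tissues and was not called. With housekeeping centring the iron list was 12 higher and 14 lower.

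Of 26 complement genes 14 were higher, 4 lower and 8 not called, and 10 were dim in both tissues. C3ar1, the receptor of the C3a fragment, and C1s1, a protease of the first complex, were 6.43-fold and 4.87-fold higher in RPE and dim in NSR, and the regulator Clu was higher as given above. Vtn, vitronectin, which blocks the membrane attack complex and is made by photoreceptors, was 6.39-fold lower in RPE, at 11.34 ± 0.07 in NSR and 8.67 ± 0.12 in RPE (SD, n = 4). With housekeeping centring the counts were 10 and 12. Of 37 antioxidant genes 28 were higher and 1 lower, or 23 and 9 with that centring. Mgst1, a membrane glutathione transferase, was 25.7-fold, the quinone reductase gene Nqo1 17.8-fold, the metallothionein gene Mt2 13.5-fold and Gstm2 13.4-fold higher, with Mgst1, Nqo1 and Gstm2 dim in NSR. The lower gene was Slc7a11, which brings in cystine for glutathione, 4.06-fold lower and dim in RPE.

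Genes of the tissues next to the RPE were also higher on its arrays. Of 23 genes of fibroblasts, pericytes and smooth muscle 17 were higher and 4 lower (9 and 4 with housekeeping centring), and the list's level was 6.85, 7.34, 7.13 and 6.96 on the RPE arrays and 6.30 to 6.54 in NSR. Dcn was 37.3-fold and Ogn, another small proteoglycan, 36.5-fold higher. Acta2, smooth muscle actin, was 16.8-fold higher, all 3 dim in NSR, and Igf1 was 2.23-fold lower. Of 24 microglia and macrophage genes 20 were higher and 0 lower, or 16 and 4 with housekeeping centring. The list's level was 7.15 to 7.45 in RPE and 5.88 to 5.98 in NSR. Csf1r was 20.7-fold, Lyz2 9.47-fold and Mrc1, of tissue macrophages, 6.80-fold higher, all 3 dim in NSR, while P2ry12, which marks resting microglia, was dim in both and not called. Ctss, a lysosomal protease, and C1qa, of the first complement complex, are also genes of these cells and were 2.19-fold and 2.71-fold higher, and the part of macrophages in them and in C3ar1 was not tested.

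Of 23 general endothelial genes 6 were higher, 5 lower and 12 not called, near the 30.8% and 24.3% of all genes, and with housekeeping centring 2 were higher and 14 lower. Kdr and Flt1, receptors of VEGF, were 5.96-fold and 4.09-fold lower in RPE, whereas Ramp2 was 27.1-fold and Emcn 2.71-fold higher, with Emcn dim in NSR. Of 12 genes of barrier endothelium 5 were higher and 5 lower, and the 4 largest on the RPE side, Mfsd2a, Slco1c1, Slc2a1 and Ocln, are also genes of epithelia.

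Most genes of lens and cornea were not called. On the lens list 2 of 14 genes were called, Lim2 2.81-fold and Bfsp2 2.30-fold higher, both dim in NSR. The crystallins were high on RPE control 2 alone: Crygd read 3.59, 8.86, 3.80 and 3.92 on the RPE arrays, Crygs 5.52, 8.37, 5.36 and 5.44 and Cryaa 7.07, 9.14, 7.06 and 7.06. None of these 3 was called, and without that array the differences were 0.08, 0.34 and -0.09, of which that of Crygs was then called, as it was with the mouse as a block. Kera and Lum, proteoglycans of cornea and sclera, were high on RPE control 2 and 3, with Kera at 5.78, 8.96, 7.91 and 5.98. Both were dim in NSR. Kera was 5.28-fold higher over all arrays, and its log2 difference of 2.40 was 1.80 without RPE control 2. On the list of cornea, conjunctiva and ciliary epithelium 5 of 13 genes were higher and 0 lower, or 2 and 9 with housekeeping centring. Wfdc2, an epithelial secreted protein, was 12.1-fold higher. Mast cell genes were 6 higher and 0 lower of 10, or 2 and 4 with housekeeping centring. Kit, shared with melanocytes, was 2.48-fold and Cpa3 2.07-fold higher, and 6 of the list, Cpa3 among them, were dim in both tissues. Of 12 lymphocyte and granulocyte genes 5 were higher and 1 lower with 8 dim in both, or 0 higher and 7 lower with housekeeping centring. Over all genes as deposited 30.8% were higher and 24.3% lower. The directions of the cornea, mast cell and lymphocyte lists are thus not settled. Alas2 and Slc4a1, the only 2 genes of 8 on the red cell list that were analysed here (the globins were not), were not called.

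**Figure D5:**
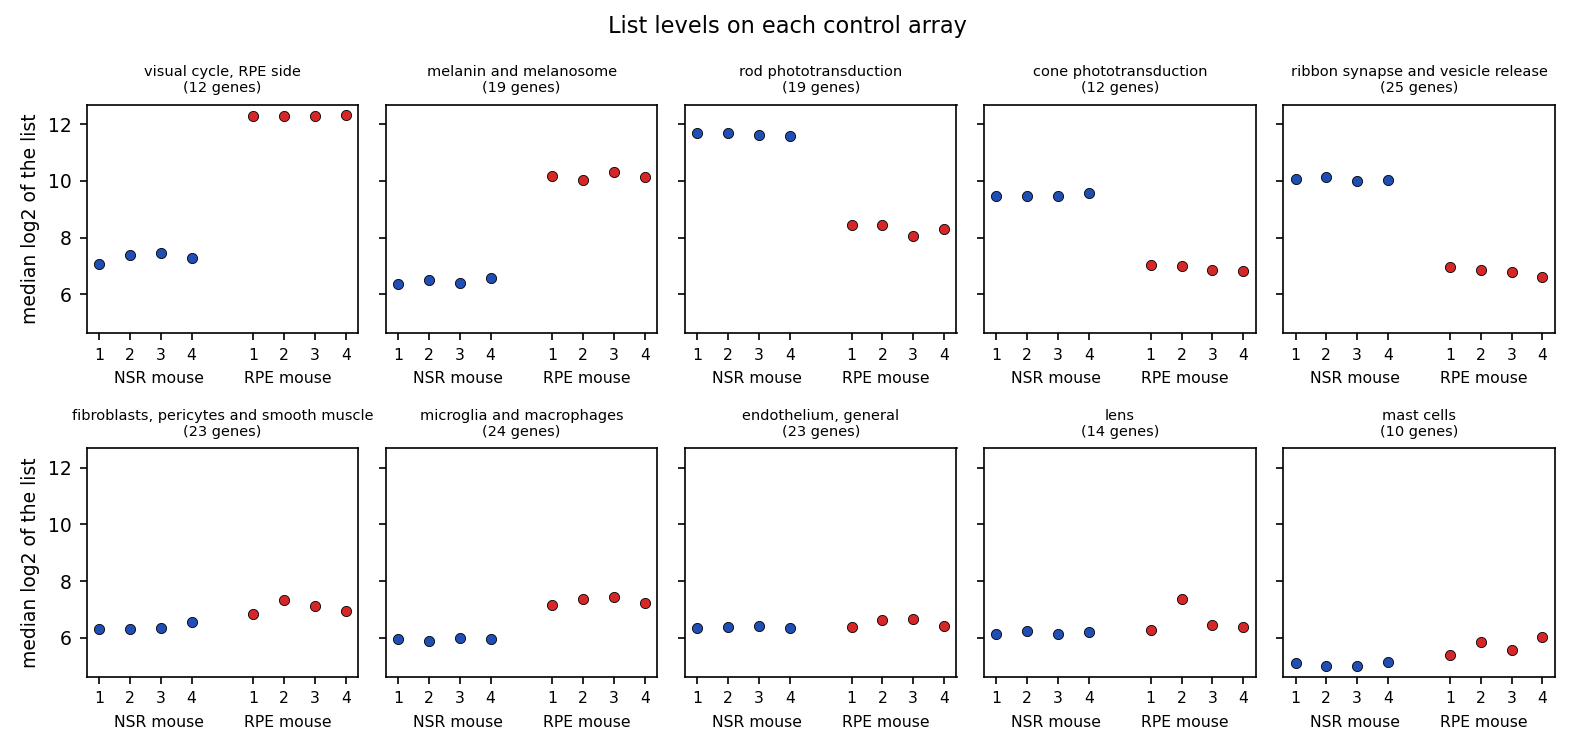
Median log2 expression of 10 gene lists on each control array, NSR mouse 1 to 4 in blue and RPE mouse 1 to 4 in red. The lens list is high on RPE control 2 (7.37), and the rod list on the RPE arrays lies between 8.05 and 8.46.

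Clock genes, measured at a time of day that the labels do not give, differed in both directions. Of 17 genes 7 were higher in RPE, 6 lower and 4 not called, with a median of 0.01. Over all genes 30.8% were higher and 24.3% lower. The counts were 5 higher and 9 lower with housekeeping centring and 6 and 9 after quantile normalization, so that the list's direction is not settled. Arntl, which encodes BMAL1, read 9.68, 9.83, 9.61 and 9.57 in NSR and 7.34, 7.68, 7.54 and 7.38 in RPE, 4.56-fold lower (log2 -2.19, SE 0.09, limma adjusted p = 1.6e-09). Bhlhe40, a repressor of that loop, was 4.28-fold higher, Ciart 2.25-fold and Tef 1.70-fold. Its partner Clock was 1.30-fold lower, a call that held under the 4 scalings, and Per2 and Dbp, named after their values had been seen, were 1.67-fold and 1.66-fold higher. Whether these are differences of level or of phase cannot be told apart without the times of sampling.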

How the data were processed

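RNA of 8 control arrays (4 NSR, 4 RPE) was compared. Per the labels' protocols, extraction used RNeasy Mini columns, amplification the Ovation Pico WTA kit and labelling biotin at the ends. The values the authors deposited are log2 expression, and the submitters' processing notes name RMA and Partek 6.6; RMA's background correction compresses the differences of dim genes. Array medians over all clusters were 6.55 to 6.57 in NSR and 6.41 to 6.42 in RPE. The sources used here give neither the annotation's version nor any filter. Of 35556 transcript clusters, 21789 had 1 gene symbol in the platform annotation, 1621 several and 12146 none here. A gene was represented by its brightest cluster (999 genes had over 1), giving 19938 genes. Clusters of overlapping or near-identical genes may share signal.

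The difference was fitted with limma 3.58.1 in R 4.3.3 (lmFit, eBayes, tissue as the only term) with Benjamini-Hochberg adjustment. Within each tissue the 4 arrays came from separate mice, and their number limits the precision. On simulated data from these arrays the fit recovered 96% of genes changed 1.5-fold and 100% of those changed 2-fold, over 19938 genes, with 11 unchanged genes called. There only a small part of the genes was changed, against 55.1% called in the data. The noise was independent and normal at each gene's fitted SD, without outlying arrays. The simulation thus checks the fit and does not measure its performance on this comparison. Tissues of the same mouse are paired by the labels' mouse number; deviations from the group means of the same mouse correlated at 0.038, -0.011, 0.027 and 0.053. The mouse as a block left 10762 genes called, against 10984 without it.

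Members, 44 gene lists and the processing alternatives were chosen with earlier results of these data known, and the lists overlap. The rule for named genes took the 15 largest non-overlapping differences in each direction, the 4 largest called members of each list with the called member most opposed to the list's median, and all members of 5 lists. The 15 in each direction leave out predicted, clone, RIKEN and small RNA names. Of 304 genes named, 218 came from that rule and 86 were chosen after their values had been seen. Alternatives were 4 scalings (1 of them, over all transcript clusters, added after seeing the data), leaving out the dimmest 25% of genes, all 16 arrays in 1 fit, the mouse block, trend and robust priors, array weights, other choices of cluster, leaving out each array in turn, and a test against a 2-fold difference (treat).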

Additional observations from a re-analysis of the deposited data

Results flagged for a closer look

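Among 696 groups of 4 arrays, for the genes named and the gene lists, 35 (5.03%) held an array far from the other 3, by Dixon's test at a level that chance passes in about 1 in 20 groups. Of these, 5 were values of RPE control 2: its crystallin genes Crygd (8.86), Crygs (8.37) and Cryaa (9.14) and the lens list (7.37) were high, and Rab38 (8.04) was low. On the other RPE arrays, RPE control 1 was high for Impg2 (6.54), Krt8 (11.37) and the fatty acid oxidation list (10.01) and low for C3ar1 (8.24), Fabp3 (6.92) and Ramp2 (10.62). RPE control 3 was high for Tyrp1 (12.34) and the list of Schwann cells and oligodendrocytes (6.94) and low for Hk1 (10.89) and Pde6c (7.98), and RPE control 4 was high for Rxrg (6.24).

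On the NSR arrays, NSR control 3 was high for Col8a1 (6.69), Ptgds (7.79), Trf (7.81) and Igfbp5 (6.69) and low for Igf1 (7.34) and the complement list (5.71). NSR control 1 was high for Csf1r (6.04) and Dbp (9.48) and low for Sfrp1 (5.73). NSR control 2 was high for Gad1 (8.44) and the list of eye field transcription factors (7.17) and low for Apoe (10.35) and Elovl2 (7.96). NSR control 4 was high for Col4a3 (7.30), Kera (4.94) and the fibroblast list (6.54) and low for C1s1 (4.27), Cnga1 (12.10) and the cornea list (5.65).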

How the results depend on the processing

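Against 10984 called genes, 17089 were called with housekeeping centring and 2321 in the test against a 2-fold difference; the share higher in RPE was 17.7% with that centring and 72.3% with centring over all transcript clusters, against 55.9%. The count of called genes at least 2-fold apart, 3274, lay between 3071 and 3721 under the settings other than that test. Leaving out each array in turn gave 10363 to 10729 called genes, 3242 to 3298 at least 2-fold apart and 55.4% to 56.5% higher in RPE. With the mouse as a replicate block 10762 genes were called; among the genes named, Slc8a2 lost its call, and Crygs and Aqp1 gained one, while no other call of a named gene changed. Of 283 named genes that were called, 267 kept direction and call under the 4 scalings and 281 under the alternatives that leave the scaling alone, and 217 passed the test against a 2-fold difference, where 239 were at least 2-fold apart.

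With housekeeping centring the difference changed sign for Alas2 (-0.34), Atp1b3 (-0.12), Best1 (-0.27), Cldn19 (-0.37), Col4a1 (-0.39), Gas6 (-0.28), Glul (-0.31), Gnao1 (-0.19), Mag (-0.02), Mlph (-0.11), P2ry12 (-0.40), Pros1 (-0.28), Rxrg (-0.13), Slc24a1 (-0.37), Slc4a1 (-0.32) and Sv2b (-0.03), and with quantile normalization for Slc24a1 (-0.18) and Gnao1 (-0.00). The cause of these changes is the centring itself, which moved all genes by the same amount on each array; for quantile normalization the cause was not tested. Low signal is the other limit: 1155 called genes lay in the background range of both tissues.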

Other observations

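Genes that carry lipids stood on opposite sides beyond those already named. Lpl, the lipase that frees fatty acids from lipoproteins, was 4.88-fold higher in RPE, and Abca1, which loads cholesterol onto apolipoproteins, 3.37-fold. Abcg1, a related exporter, was 3.19-fold lower. The intracellular fatty acid carriers Fabp7, Fabp5 and Fabp3 were 4.48-fold, 2.44-fold and 2.26-fold lower in RPE, Fabp7 being dim there.

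Receptors and binding proteins of growth factors were among the larger differences towards RPE that were not yet described. Tgfbr3, the co-receptor of TGF-beta, was 8.11-fold and Lrp5, the Wnt co-receptor, 2.95-fold higher. Igfbp5 and Igfbp7, which bind insulin-like growth factors, were 14.4-fold and 10.7-fold higher, and the ligands Pdgfc and Vegfc 8.48-fold and 3.53-fold, with Vegfc dim in NSR. Pmp22, a membrane protein of myelin with wide expression, was at 11.04 ± 0.04 in RPE and 7.89 ± 0.02 in NSR (SD, n = 4), 8.89-fold higher. These genes were picked after their values had been seen, and all differences are those of the limma fit to 4 control arrays of each tissue.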
